A study of Mus musculus with 21 samples.

Results

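The Hoxa cluster is a run of neighbouring homeobox genes on mouse chromosome 6, and its expression was followed here along the presomitic mesoderm (PSM), the still unsegmented paraxial tissue that gives rise to somites. The genes were chosen by symbol, from a list of 10 (Hoxa2, Hoxa3, Hoxa4, Hoxa5, Hoxa6, Hoxa7, Hoxa9, Hoxa10, Hoxa11 and Hoxa13). Of these, 9 had a probe set annotated to that symbol alone, out of 18193 genes with such a probe set, and Hoxa6 was not analysed here. The highest-mean probe set stood for each gene, and the others served as a check. Of the 9, 8 passed the filter on low values, which asked for a signal of at least 13.3 in 3 or more arrays, and Hoxa13 did not. Each of the 8 reached that signal in 17 or more of the 21 arrays, with arrays of both part 1 and part 7 among them.

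RNA came from embryos of CD-1, an outbred mouse strain, with no treatment or mutation named. The labels give the stage as E8.5, whereas the protocol puts dissection at 9.0 dpc (days after mating). After pancreatin, ectoderm, endoderm and lateral plate were taken off with needles and the PSM was cut into 7 pieces, called parts 1 to 7, with 3 Affymetrix arrays each. The labels describe the pieces as running between tailbud and somite but do not say which number lies at which end, so positions are given by part number. Left and right PSM of one embryo were both collected according to the design text, which ties no array to an embryo. Some arrays may therefore share an animal, and a p-value here measures the spread among these arrays alone. Groups of 3 arrays, not reads, limit the precision here, and mean signal per array was 151 to 154.

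Hox genes encode transcription factors with a homeodomain that give cells along the head to tail axis their regional identity. Genes at the 3' end of a cluster (low numbers) are known to be switched on earlier and further forward than genes at the 5' end (high numbers). In paraxial mesoderm, from which vertebrae form, the forward genes are known for roles in the neck, Hoxa5 at the border of neck and thorax, and Hoxa10 and Hoxa11 in the lumbar and sacral region.

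The stretches just upstream of 3 members are shown because these genes had 3 different profiles. Hoxa5 rose with part number, Hoxa7 was lowest in part 4, and Hoxa11 had the steepest fall of the members. Each is 250 bases before the RefSeq start on the minus strand of GRCm38.p6, written 5' to 3', with matches to the CDX motif TTTATG on either strand in capitals. They lie at chr6:52204588-52204837 for Hoxa5, chr6:52218574-52218823 for Hoxa7 and chr6:52245811-52246060 for Hoxa11.
Hoxa5: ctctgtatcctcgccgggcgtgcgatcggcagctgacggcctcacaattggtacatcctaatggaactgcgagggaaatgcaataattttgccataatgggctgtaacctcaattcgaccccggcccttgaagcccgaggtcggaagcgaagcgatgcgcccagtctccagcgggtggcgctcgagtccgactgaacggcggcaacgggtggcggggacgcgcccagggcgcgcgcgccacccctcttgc
Hoxa7: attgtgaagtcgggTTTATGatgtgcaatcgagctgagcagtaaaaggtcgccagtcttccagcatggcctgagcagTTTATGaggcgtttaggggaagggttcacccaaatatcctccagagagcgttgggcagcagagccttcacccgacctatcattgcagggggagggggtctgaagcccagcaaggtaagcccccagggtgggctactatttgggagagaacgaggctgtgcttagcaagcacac
Hoxa11: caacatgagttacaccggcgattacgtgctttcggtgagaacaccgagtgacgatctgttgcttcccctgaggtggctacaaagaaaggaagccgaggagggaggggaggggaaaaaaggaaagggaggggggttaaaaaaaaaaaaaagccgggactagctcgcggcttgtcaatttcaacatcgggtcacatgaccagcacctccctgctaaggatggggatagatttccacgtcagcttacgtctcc
CDX factors are known activators of Hox genes in the caudal embryo. Their motif was found at 2 places before Hoxa7, beginning 236 and 173 bases from the start, and in 1 of 11 upstream stretches listed for 9 members and Hoxa11os. Among all 32851 RefSeq promoters, 10.8% held it. The MEIS motif TGACAG was in 3 of the 11 (before Hoxa2, Hoxa3 and Hoxa11os), against 15.9% of all promoters. The hexamer bound by retinoic acid receptors, AGGTCA, was in 0 of the 11, against 14% of all. A match describes the letters only, and Hoxa4 had no entry.

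Most of the tested Hoxa genes fell with part number, and 1 rose. The slope per part, in log2(MAS5 signal + 16) and fitted with limma over all genes, was past an adjusted p of 0.05 in 6 of the 8 tested members, where 19.2% of all 12143 genes tested were. Hoxa3, Hoxa4, Hoxa7, Hoxa10 and Hoxa11 fell (11.1% of all genes did), Hoxa5 rose (8.09% of all did), and Hoxa2 and Hoxa9 did not pass. The median slope of the 8 was -0.16, beside -0.0013 over all genes. Taken within each replicate number alone, the slope of each of the 8 kept its sign in 3 of 3. That count asks for no size: Hoxa2 had -0.0087 and -0.0084 in numbers 2 and 3, and Hoxa13, under the filter, kept its sign too. The share of all genes that did so was not computed, so the count is a description. A test for any difference between parts (limma's moderated F) was passed by 5 of the 8, where 13.4% of all genes (1633) passed. It was passed by 3 without replicate number 1 and 2 without number 2, where calls over all genes fell to 611 and 645. In bulk tissue, fewer cells with a transcript and less transcript per cell cannot be told apart.

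**Figure D1:**
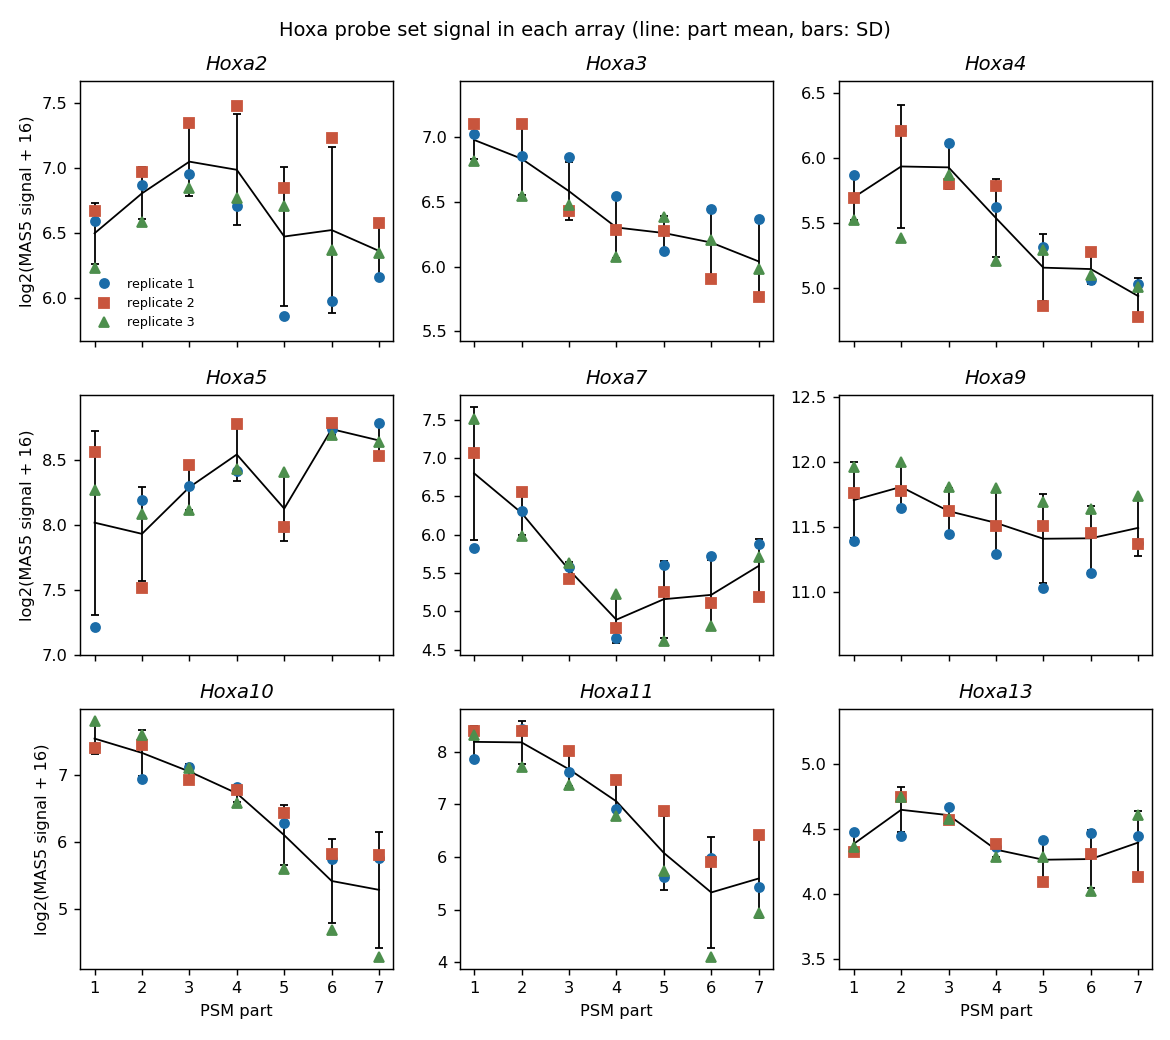
Log2(MAS5 signal + 16) of the highest-mean probe set of 9 Hoxa genes in each of 21 arrays against PSM part, with a symbol for each replicate number, a line through part means and bars for the SD (n = 3); the vertical scales differ between panels. Hoxa10 and Hoxa11 lie high in parts 1 and 2 and low in parts 6 and 7, Hoxa5 is highest in part 6, and Hoxa7 is lowest in part 4.

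At the 5' end of the cluster the falls were the steepest. Hoxa11, which patterns sacral vertebrae and the forearm, had signals of 215, 321 and 301 in part 1, 331, 319 and 193 in part 2, and 179, 243 and 150 in part 3. It had 105, 161 and 94.6 in part 4, 33.3, 102 and 37.2 in part 5, 46.9, 44.0 and 1.20 in part 6, and 26.9, 69.7 and 14.6 in part 7. The arrays of each part overlapped those of the next part, and every part 7 array was below every part 1 array. Its slope was -0.54 ± 0.06 per part (SE; limma, adjusted p = 6.57e-07). In part 7 the log2 level was 5.59 ± 0.76 and in part 1 8.19 ± 0.29 (SD, n = 3 each), a 6.04-fold lower signal in part 7 (difference -2.59 ± 0.44, SE; limma, adjusted p = 0.000436).

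Hoxa10, known for suppressing ribs in the lumbar region, had 154, 153 and 207 in part 1, 107, 158 and 176 in part 2, 123, 105 and 121 in part 3 and 96.5, 93.0 and 79.7 in part 4. Signals were 61.7, 69.8 and 32.2 in part 5, 37.7, 40.2 and 9.84 in part 6 and 38.4, 39.9 and 3.52 in part 7. Its part means ran downward in the order of the parts, and the arrays did not overlap between parts 3 and 4 or between parts 4 and 5. The slope was -0.41 ± 0.04 (SE; limma, adjusted p = 2.7e-07), and the signal was 4.76-fold lower in part 7 (-2.25 ± 0.34, SE; limma, adjusted p = 0.000137), with no overlap with part 1. A further probe set of Hoxa10 gave a smaller slope of -0.25 ± 0.03 (SE). The array with replicate number 3 was the lowest in parts 5, 6 and 7 for Hoxa10, and within replicate numbers 1, 2 and 3 the slope was -0.29, -0.30 and -0.64.

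For both, the 2 most negative differences between neighbours were those of part 5 against 4 and part 6 against 5. From part to part the log2 difference of Hoxa11 was -0.01, -0.51, -0.61, -0.98, -0.75 and 0.26, each the higher part number minus the lower. For Hoxa10 it was -0.21, -0.28, -0.32, -0.62, -0.68 and -0.13. Over the 6 steps and 8 members 0 of 48 limma tests passed the adjusted threshold, and 3 had an unadjusted p under 0.05: part 5 against 4 for Hoxa11, part 6 against 5 for Hoxa5 and part 3 against 2 for Hoxa7. The share of all genes at that unadjusted level was not computed, so the 3 are listed only and not read as changes. At the adjusted threshold the share of all genes called was 0.799% in part 2 against 1, 0.00824% in part 3 against 2, 0.0494% in part 4 against 3, 0.321% in part 5 against 4, 0.486% in part 6 against 5 and 0% in part 7 against 6.

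The most 5' member was not measured above the filter. Hoxa13, which acts in the limb tip and the hindgut, had signals of 0.315 to 10.9 with a median of 5.34, and 0 of 21 arrays reached 13.3, so it was not tested. Its paralogue Hoxd13 had a slope of -1.002 ± 0.104 (SE; limma, adjusted p = 1.55e-07). Levels of different probe sets cannot be set against each other. From a signal under the filter, a transcript that is absent cannot be told from one that this probe set misses.

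The Hoxa11 antisense transcript and 2 genes beyond Hoxa13 fell as well. Hoxa11os, a non-coding RNA whose RefSeq gene overlaps that of Hoxa11, had 223, 267 and 181 in part 1, 37.2, 83.2 and 47.0 in part 4, and 0.623, 15.99 and 2.76 in part 7. Its slope was -0.61 ± 0.04 (SE; limma, adjusted p = 1.31e-10). Evx1, the homeobox gene next to the 5' end of the cluster, had 232, 567 and 459 in part 1, 133, 175 and 117 in part 2, 13.2, 24.7 and 48.2 in part 4 and 5.99, 14.4 and 1.25 in part 7. The arrays of Evx1 did not overlap between parts 1 and 2, 2 and 3 or 3 and 4, whereas those of Hoxa11 overlapped between each of these pairs. Evx1 and Evx1os had slopes of -0.72 ± 0.07 and -0.68 ± 0.08 (SE; limma, adjusted p = 2.37e-08 and 1.51e-06). Within arrays, the slope of Evx1 minus that of Hoxa11 was -0.18 (95% interval -0.34 to -0.01). The slope of Hoxa11 minus that of Hoxa11os was 0.07 (95% interval -0.04 to 0.17), which takes in 0. That difference depends on the 16 added before the log. With 1 added, the slopes of Hoxa11 and Hoxa11os were -0.69 and -0.93, and with 64 -0.36 and -0.35.

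Of 9 tested neighbours and cluster transcripts 3 fell (Evx1, Evx1os and Hoxa11os) and 1 rose, Skap2, an adaptor protein gene beyond the 3' end, by 0.06 ± 0.01 per part (SE; limma, adjusted p = 0.00198). The other 5 did not pass. Over all genes 11.1% fell and 8.09% rose. The median slope of the list was -0.0084, beside -0.0013 over all genes.

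**Figure D2:**
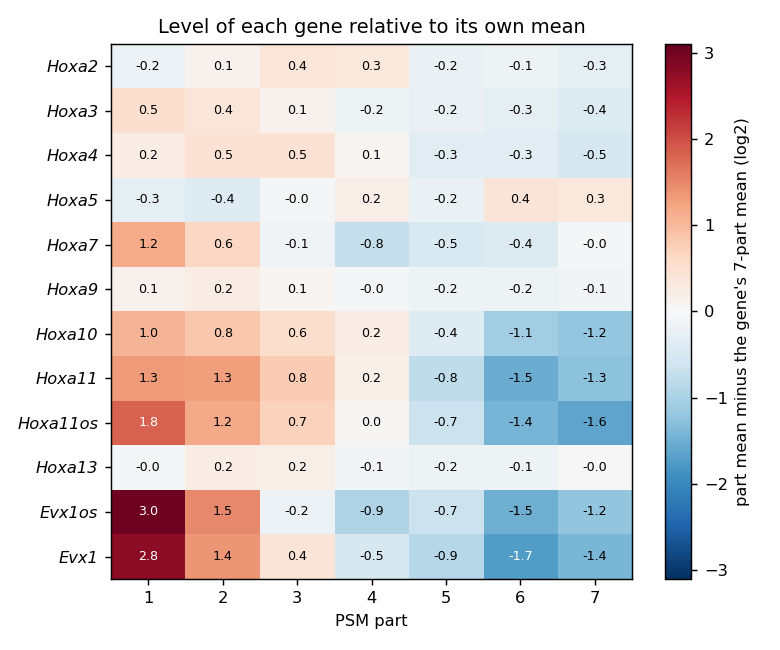
Part mean of log2(MAS5 signal + 16) minus the gene's own mean over 7 parts, for 9 Hoxa genes, Hoxa11os, Evx1os and Evx1 in chromosomal order (rows) and parts 1 to 7 (columns), with red above and blue below the mean. Hoxa10, Hoxa11, Hoxa11os, Evx1os and Evx1 go from red in part 1 to blue in part 7, Hoxa5 runs the other way within 0.41 of its mean, and Hoxa9 stays within 0.24.

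Hoxa5 was the member that rose. It had signals of 133, 362 and 293 in part 1, 276, 167 and 255 in part 2, 298, 336 and 261 in part 3 and 326, 422 and 330 in part 4. Part 5 had 236, 237 and 324, part 6 410, 424 and 398, and part 7 424, 353 and 382. All 6 arrays of parts 6 and 7 were high, while part 1 held both a high and a low array, so that parts 7 and 1 overlapped. The order of part means was 6, 7, 4, 3, 5, 1 and 2, and the arrays overlapped between every pair of neighbours in that order. The slope was 0.12 ± 0.03 (SE; limma, adjusted p = 0.017), and part 7 against part 1 gave 0.63 ± 0.25 (SE; limma, adjusted p = 0.103), 1.55-fold, short of the threshold. Without the low array, part 1 replicate 1, the slope was 0.09 and lost its call (adjusted p = 0.0673), and it was also lost without replicate number 1 (0.08, adjusted p = 0.221) or 3 (0.13, adjusted p = 0.0752). A further probe set of Hoxa5, of a kind that can take up related transcripts, had a slope of -0.01 ± 0.03 (SE; limma, adjusted p = 0.849).

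Hoxa7, in the centre of the cluster, had its lowest part mean in part 4. It had 41.0, 118 and 166 in part 1, 63.4, 78.4 and 47.3 in part 2, and 31.6, 26.9 and 33.6 in part 3. Signals were 9.13, 11.6 and 21.6 in part 4, 32.6, 22.2 and 8.54 in part 5, 36.6, 18.7 and 12.1 in part 6 and 42.7, 20.5 and 36.4 in part 7. Parts 1 and 2 were high and part 4 low, and all part 2 arrays exceeded all arrays of parts 3 to 7, while part 1 replicate 1 lay among the part 7 arrays. The mean of parts 3, 4 and 5 was lower than that of parts 1, 2, 6 and 7 by a log2 difference of -0.78 ± 0.19 (SE; limma, adjusted p = 0.0241), and Hoxa7 was the 1 member of 8 called there. The high parts 1 and 2 enter the end group, so a fall that levels off can also give such a difference. After part 4 the steps were 0.27, 0.06 and 0.38 (limma, unadjusted p = 0.446, 0.871 and 0.287), and a later rise was not shown. Over all genes 2.92% were called, 1.6% as lower and 1.32% as higher in the middle parts. The slope was -0.22 ± 0.06 (SE; limma, adjusted p = 0.0132) and part 7 against part 1 -1.21 ± 0.34 (SE; limma, adjusted p = 0.0234). In replicate number 1 alone part 7 differed from part 1 by 0.04, against -1.87 and -1.80 in numbers 2 and 3. The slope lost its call without part 1 replicate 3 (-0.17, adjusted p = 0.0505), and the middle difference without any 1 of 6 arrays (part 1 replicate 2, part 3 replicate 2, part 4 replicate 1 or 2, part 5 replicate 3 or part 7 replicate 1), at an adjusted p of 0.0504 to 0.0614. Without replicate number 2 or 3 both were lost as well (slope -0.17 in each, adjusted p = 0.167 and 0.0989; middle -0.75 and -0.74, 0.303 and 0.0647).

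Of the 3' members, Hoxa3 and Hoxa4 fell and Hoxa2 did not pass. Hoxa3, which acts in pharyngeal organs and the neck, had 114, 121 and 96.3 in part 1, 77.1, 61.9 and 51.5 in part 4 and 66.6, 38.5 and 47.2 in part 7. Its part means ran down in the order of the parts with overlap between all neighbours, and part 7 lay wholly below part 1. The slope was -0.16 ± 0.02 (SE; limma, adjusted p = 4.34e-05), and the signal 1.91-fold lower in part 7 (-0.94 ± 0.19, SE; limma, adjusted p = 0.00251). Of 3 further probe sets of Hoxa3, with slopes of -0.14, -0.09 and -0.07, the last did not pass, and none of the 3 passed in part 7 against part 1 (-0.43, -0.41 and -0.26). In RefSeq the span of Hoxa3 takes in Hoxa4, Hoxa5 and Hoxa6, so its probe sets may read different transcripts.

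Hoxa4, a gene of neck vertebrae, had 42.5, 35.7 and 30.1 in part 1, 58.2, 57.7 and 25.8 in part 2, 53.4, 39.5 and 42.5 in part 3 and 16.6, 11.4 and 16.1 in part 7. Parts 1 to 3 overlapped and all part 7 arrays lay below them. The slope was -0.17 ± 0.03 (SE; limma, adjusted p = 0.000339), and part 7 against part 1 gave -0.76 ± 0.21 (SE; limma, adjusted p = 0.02). That difference lost its call without part 1 replicate 1 (-0.67, adjusted p = 0.0848), part 1 replicate 2 (-0.76, 0.054) or part 7 replicate 2 (-0.68, 0.0706). The other probe set of Hoxa4 had a slope of -0.0097 (limma, adjusted p = 0.868). It is of the same kind as the further one of Hoxa5, and its mean signal of 11.5 was under the filter value, which limits what its slope can show.

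Hoxa2, which sets the identity of the second pharyngeal arch, had its highest means in parts 3 and 4. Signals were 80.8, 85.6 and 59.2 in part 1, 108, 147 and 99.1 in part 3, 88.7, 162 and 93.4 in part 4 and 55.8, 79.6 and 65.2 in part 7. The arrays overlapped between all neighbours in the order of levels, the slope was -0.06 ± 0.04 (SE; limma, adjusted p = 0.407) and the middle parts differed by 0.29 ± 0.16 (SE; limma, adjusted p = 0.492). Hoxa9, of a paralogue group known for rib patterning, ran from 2076 to 4094 with a median of 3136. Its means were 11.71 ± 0.29 in part 1, 11.81 ± 0.18 in part 2, 11.41 ± 0.34 in part 5 and 11.50 ± 0.21 in part 7 (SD, n = 3). All neighbours in its order overlapped, and its slope of -0.06 ± 0.02 (SE; limma, adjusted p = 0.0798) did not pass. Without part 1 replicate 1 it was -0.07 (adjusted p = 0.0318), and without part 7 replicate 3 also -0.07 (0.0292). A further probe set gave -0.07 ± 0.03 (SE; limma, adjusted p = 0.0954).

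**Figure D3:**
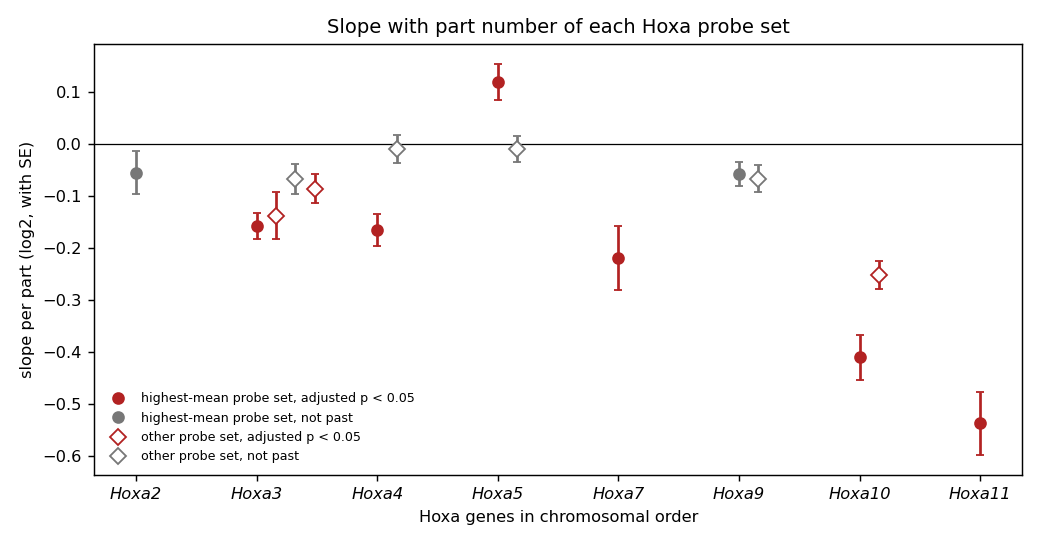
Change in log2(MAS5 signal + 16) per part of each Hoxa probe set past the filter, with bars for the SE, with genes in chromosomal order, filled circles for the highest-mean probe set, open diamonds for others and red for an adjusted p under 0.05 in a fit over all probe sets. Hoxa5 lies above 0 at 0.12, and Hoxa10 and Hoxa11 lie lowest.

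The slopes did not run evenly along the cluster. Differences of slope were taken within arrays for 14 pairs of genes, with 95% intervals that are not adjusted for their number. Hoxa5 minus Hoxa4 was 0.28 (0.18 to 0.39), Hoxa7 minus Hoxa5 -0.34 (-0.49 to -0.18), Hoxa9 minus Hoxa7 0.16 (0.02 to 0.30), Hoxa10 minus Hoxa9 -0.35 (-0.48 to -0.23) and Hoxa11 minus Hoxa10 -0.13 (-0.24 to -0.02). These 5 neighbouring pairs had intervals that left out 0, with the sign alternating over the first 4. Successive pairs share a gene, which by itself favours opposite signs, so the intervals are not independent and the alternation is a description. These differences rest on the highest-mean probe sets, and the other probe sets of Hoxa5 and Hoxa4 had slopes of -0.010 and -0.0097, close to each other. That of Hoxa4 had a mean signal of 11.5, under the filter value. Hoxa3 minus Hoxa2 was -0.10 (-0.22 to 0.02) and Hoxa4 minus Hoxa3 -0.01 (-0.08 to 0.06), both taking in 0. Since log2(value + 16) understates changes of dim probe sets, part of such a difference can come from the level of a probe set.

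Part 7 differed from part 1 in 5 of the 8 members, all lower in part 7. The count was 3 without part 7 replicate 2, where Hoxa4 and Hoxa7 lost their calls, and 2 without replicate number 2, where Hoxa3 did too. Over all genes 13.4% (1628) were called, 7.3% as lower and 6.1% as higher in part 7. Without replicate number 2 the calls over all genes fell to 750. The arrays of the 2 parts did not overlap in 4 of 8 members (Hoxa3, Hoxa4, Hoxa10 and Hoxa11), all lower in part 7, where 29.1% of all genes did not overlap and 14.7% were lower. The median difference of the 8 was -0.85, beside 0.00086 over all genes.

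Genes of the other Hox clusters, which hold paralogues of the members, were counted as a list. Of 20 tested genes of the Hoxb, Hoxc and Hoxd clusters 12 fell, 1 rose and 7 did not pass, where 11.1% of all genes fell and 8.09% rose. The median slope was -0.13, beside -0.0013 over all genes. The 1 that rose was Hoxb5, at 0.16 ± 0.03 (SE; limma, adjusted p = 0.0011), and the slope of Hoxa5 minus that of Hoxb5 was -0.04 (95% interval -0.12 to 0.05). Hoxc5 fell by 0.28 per part on the log2 scale, and Hoxa5 minus Hoxc5 was 0.40 (95% interval 0.32 to 0.48). For paralogue 10, Hoxc10 had -0.44 ± 0.03 and Hoxd10 -0.52 ± 0.06 (SE). Hoxa10 minus Hoxc10 was 0.03 (95% interval -0.06 to 0.12), and Hoxa10 minus Hoxd10 0.11 (0.02 to 0.21). Hoxd11 had -0.53 ± 0.06 (SE), and Hoxa11 minus Hoxd11 was -0.01 (95% interval -0.12 to 0.10).

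The tested genes most like each changing member, by Pearson's r over the 21 arrays, are given as a likeness of level only. Hoxc10 (r = 0.95) and Notch4 (0.943), a receptor gene, were most like Hoxa11, and Hoxd10 (0.943) and Pde9a (0.937) most like Hoxa10. Bmper (0.862), a BMP-binding protein gene, and Fgf4 (0.853), a growth factor gene, were most like Hoxa7. Gpx8 (0.9) and Nkd2 (0.884), a Wnt antagonist gene, stood next to Hoxa4, Atf7ip2 (0.883) and Pmel (0.882) next to Hoxa3, and Rhebl1 (0.77) and Ppp1r9a (0.764) next to Hoxa5. Among the members themselves Hoxa10 and Hoxa11 had the highest r, 0.923, and Hoxa11 with Hoxa11os had 0.933. Hoxa5 had an r of -0.55 with Hoxa10, and Hoxa2 of 0.08 with its neighbour Hoxa3. Parts, embryos and array scaling are shared by all these points, so r is given as a description.

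**Figure D4:**
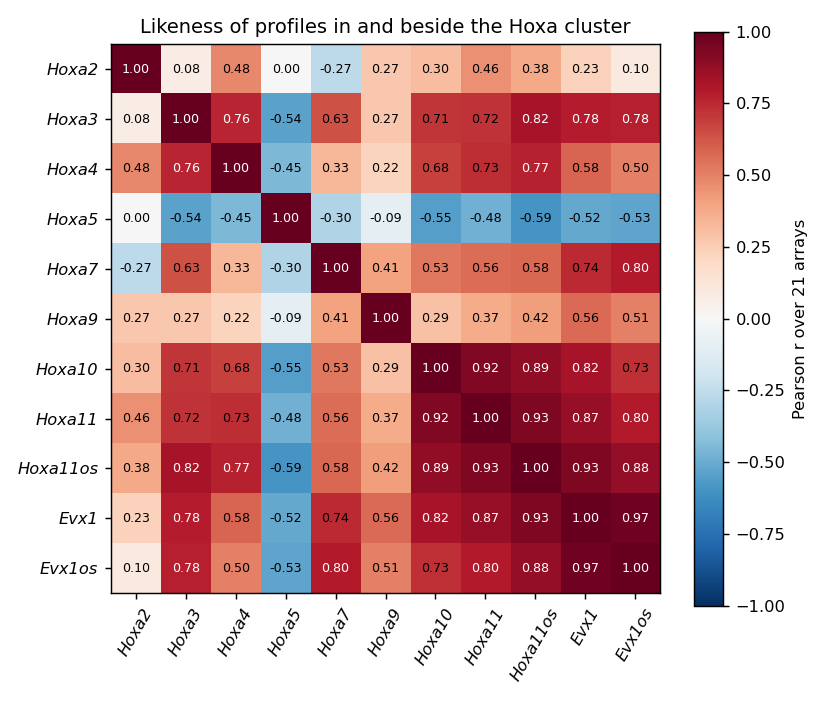
Pearson's r of log2(MAS5 signal + 16) over 21 arrays between 8 Hoxa genes, Hoxa11os, Evx1 and Evx1os, in blue below 0 and red above. Hoxa10, Hoxa11, Hoxa11os, Evx1 and Evx1os form a red block with r of 0.732 or more, Hoxa5 has r below 0 with all but Hoxa2, and Hoxa9 has r of 0.565 or less with all others.

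Known regulators and partners of Hox proteins were counted from lists. In the lists that follow, counts are to be read against 11.1% of all genes that fell and 8.09% that rose, and medians against -0.0013. Of 14 tested upstream regulators 9 fell and 3 rose (median slope -0.34): the caudal activators Cdx4 and Cdx2 had slopes of -0.81 ± 0.06 and -0.67 ± 0.08, Cyp26a1, which degrades retinoic acid, -0.75 ± 0.15, and Aldh1a2, which makes it, 0.98 ± 0.07 (SE). Of 7 tested cofactors of the TALE class, which bind DNA with Hox proteins, 3 rose and 1 fell (median 0.10), with Meis1 at 0.48 ± 0.07 (SE; limma, adjusted p = 1.71e-05). The other two that rose, Meis2 (0.28) and Pknox2 (0.10), each lost their calls without any 1 array of part 1, at an adjusted p of 0.058 to 0.0702 for Meis2 and 0.0682 to 0.106 for Pknox2. Pknox2 also lost it without part 2 replicate 2 (0.0502). These were calls of the straight line alone. In part 7 against part 1, Meis2 was higher by 2.57 ± 0.30 and Pknox2 by 0.73 ± 0.18 (SE; limma, adjusted p = 5.37e-06 and 0.00833). Part 2 against 1 gave 2.26 for Meis2 (limma, adjusted p = 0.00074) and 0.55 for Pknox2 (0.185, not past). Those differences were not recomputed with arrays left out. Of 13 Polycomb and trithorax genes, which keep Hox chromatin silent or open, 4 rose and 1 fell (median 0.02), with Bmi1 at 0.23 ± 0.03 and Cbx2 at 0.12 ± 0.02 (SE; limma, adjusted p = 1.77e-05 and 7.16e-05). Kdm6b, a further one of the 4, had 0.10 and lost its call without part 1 replicate 1 (adjusted p = 0.0846) or part 7 replicate 3 (0.0534).

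Markers of the tissue and of other cells were measured in the same arrays. All 10 paraxial mesoderm markers passed the filter, and 4 rose (Meox1, Tcf15, Foxc2 and Pax3) and 5 fell (Tbx6, Msgn1, Dll1, Dll3 and Hes7), with a summed signal of 6684 to 9397 in part 7 and 3195 to 3756 in part 1. Of 9 tested neural tube markers, a tissue that also expresses Hox genes, 2 rose and 1 fell, and the summed signal was 1339 to 1381 in part 7 and 1380 to 1752 in part 1. Of 5 tested blood markers 3 fell, with 6528 to 12326 in part 7 and 10715 to 17963 in part 1. Of 7 gut endoderm markers 1 fell, with 74.6 to 270.0 in part 7 and 225 to 420 in part 1. Of 6 endothelial markers 0 passed, with 33.7 to 183 in part 7 and 18.2 to 333 in part 1. Lateral and intermediate mesoderm had 1 of 5 that rose and 1 that fell (96.7 to 160 in part 7 and 88.0 to 162 in part 1). Surface ectoderm had 1 of 3 that fell (29.4 to 44.9 in part 7 and 42.6 to 56.3 in part 1), and the 1 notochord marker tested did not pass (34.4 to 55.5 in part 7 and 29.9 to 44.1 in part 1). Markers under 13.3 in every array were Hba-a1 of blood, 1 of lateral mesoderm and 2 of surface ectoderm. The part of these tissues in the Hoxa results was not tested.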

How the data were processed

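Per the labels' protocols, RNA from PSM pieces was amplified in 2 cycles and labelled with biotin, which can distort levels from small amounts. The authors deposited 1 intensity per probe set and array on a linear scale, from MAS5 per the submitters' processing notes. Its scaling target was not stated. Such scaling hides a change shared by most genes.

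Titles gave each array its part. Of 45101 probe sets, 34945 carried a single gene symbol, updated through RefSeq, and yielded 18193 genes by highest mean, while 932 with several symbols were dropped. Genes needed a signal of 13.3 (the median of all values) in 3 arrays, leaving 12143. Tests were on log2(value + 16), which understates folds of low genes, in limma 3.58.1 (R 4.3.3; trend, no block, Benjamini-Hochberg at 0.05): a straight line on part number, and 7 part means with 14 residual degrees of freedom. The fits were tested on simulated data. An SD is over 3 arrays, and an SE is from the fit. Slope differences are straight lines through within-array differences (scipy 1.17.1). Single probe sets were fitted over all probe sets.

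Named genes are the members, the 2 genes most like each called member, and up to 4 per list by size of slope, with paralogues, not all given. Members and lists were chosen with earlier results of these data known. Alternatives were pseudocounts, filters, scalings, array weights, probe set rules, replicate blocks and arrays left out.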

Additional observations from a re-analysis of the deposited data

How the results depend on the processing

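Over 43 alternatives 1420 values of single genes were recomputed, of which 1359 kept direction and side of the threshold, 49 lost a call, 8 gained one and 4 changed sign. The slopes of Hoxa10, Hoxa11 and Hoxa11os kept their calls throughout (highest adjusted p 4.17e-05, 0.000302 and 2.35e-06). The other probe set of Hoxa11os had a mean signal of 1.16, under the filter value, and was not fitted on its own. The sign changed in part 7 against part 1 of Hoxa2 without replicate 1 (0.012, range -0.27 to 0.012 with arrays left out), of Hoxa4 (0.12) and Hoxa5 (-0.18) in their other probe sets, and in the slope of Hoxa5 (-0.010) there. In part 7 against part 1 Hoxa7 lost its call with a pseudocount of 1 (-1.52, adjusted p = 0.0572) and with only parts 1 and 7 (-1.21, 0.0878), differences no smaller than the -1.21 of all arrays, and without part 1 replicate 2 (0.0893), part 1 replicate 3 (0.127), part 7 replicate 2 (0.0953) or replicate number 2 (0.361) or 3 (0.11), and Hoxa3 without replicate number 2 (0.104). Hoxa4 lost it with the mean of its probe sets (-0.41, 0.118) and without replicate number 1 (0.21) or 2 (0.174). Without part 1 replicate 2 Hoxa5 gained one (0.91, 0.025). Members called by the slope were 6, and 4 to 7 with arrays left out. They were 5 by the F test (2 to 6), 5 in part 7 against part 1 (2 to 5, and at most 6 under any alternative) and 1 in the middle parts (0 to 1). In neighbouring steps 0 members were called under all 35 alternatives. Over all genes, leaving out arrays gave 1374 to 2320 calls for the slope (2328 with all), 611 to 1725 for the F test (1633), 704 to 1712 for part 7 against part 1 (1628), 107 to 433 for the middle parts (354), 14 to 191 for part 2 against 1 (97), 0 to 7 for part 3 against 2 (1), 0 to 9 for part 4 against 3 (6), 5 to 57 for part 5 against 4 (39), 2 to 73 for part 6 against 5 (59) and 0 to 61 for part 7 against 6 (0).

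No label pairs the arrays by replicate number, but arrays of the same number tended to deviate alike. Of 63 same-number pairs, 55 had deviations correlated over 0.1 (lowest 0.0375). The median r was 0.31 in same-number pairs and -0.23 in different-number pairs, and 18 of 21 arrays correlated best with their own number. As a fixed and as a random replicate block the number gave 3030 and 2723 calls for the F test, 2860 and 2647 for part 7 against part 1, 722 and 639 for the middle parts, and 483 and 363, 18 and 13, 34 and 28, 105 and 96, and 142 and 135 for the steps up to part 6 against 5. Under the block Hoxa9 gained a slope call (-0.06, adjusted p = 0.000612 fixed and 0.0115 random) and, fixed, a call in part 7 against part 1 (-0.21, adjusted p = 0.0308), and no member lost one. Array weights gave 543 calls for the middle parts, 184 for part 2 against 1, 12 for part 3 against 2, 50 for part 4 against 3, 68 for part 5 against 4 and 101 for part 6 against 5. A pseudocount of 1 gave 55 for part 2 against 1 and 37 for part 6 against 5, a pseudocount of 64 gave 10 for part 4 against 3, the filter at the 75th percentile 61 for part 2 against 1, quantile normalization 4 for part 3 against 2, and the fit of only parts 1 and 7, with fewer arrays, 1076. The causes were not tested. Signals near the filter value limit what Hoxa4, Hoxa7 and Hoxa13 can show.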

Other observations

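Hoxa9 and Hoxa2 differed by replicate number in every part. The array of replicate number 3 had the highest Hoxa9 signal in 7 of 7 parts, and number 3 was highest in all parts in 7% of the 12143 genes tested. For Hoxa2 the array of replicate number 2 was the highest in 7 of 7 parts, which number 2 was in 0.461% of all genes. The slope of Hoxa2 was -0.15, -0.0087 and -0.0084 within numbers 1, 2 and 3, and that of Hoxa9 -0.05, -0.07 and -0.05. The embryo behind each number is not given in the labels. These genes were picked out after their values were seen.

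The 6 differences of Hoxa11os between neighbouring parts ran from -0.77 to -0.21. By limma 0 of 6 passed the adjusted threshold, and 4 had an unadjusted p under 0.05, a level for which the share of all genes was not computed.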
